A study of Homo sapiens with 6 samples.

Results

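The RAS to ERK cascade was followed at the level of ribosome footprints in the human melanoma line CHL-1 through 7 genes. They were fixed by name and comprise 5 kinases, ARAF and BRAF (RAF kinases), MAP2K1 and MAP2K2 (the MEK kinases) and MAPK3 (ERK1), together with 2 regulators of RAS that are not kinases, SOS1 and NF1. The tables name 11227 genes, 9559 of which have a row in all 3 tables, and all 7 are among these. Their 13 transcript rows were reduced to 1 per gene, the row with most depth summed over the tables: NM_005633 for SOS1, NM_001042492 for NF1, NM_001654 for ARAF, NM_004333 for BRAF, NM_002755 for MAP2K1, NM_030662 for MAP2K2 and NM_002746 for MAPK3.

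Growth factor receptors recruit SOS1, an exchange factor that loads RAS with GTP, and NF1 (neurofibromin) speeds up the hydrolysis of that GTP. GTP-bound RAS brings RAF kinases to the membrane and activates them, RAF phosphorylates the MEK kinases, and these phosphorylate the ERK kinases, which act on cytoplasmic and nuclear targets. In melanoma this cascade is the pathway most often activated by mutation, through BRAF, NRAS or loss of NF1. The small nucleolar RNAs SNORD50A and SNORD50B have been reported to bind K-Ras, which raises the question of how the cascade stands in a line edited at their genes.

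The study has 6 libraries in 3 groups of 2. The first group is the CHL-1 line in which CRISPR was directed at SNORD50A/B, the second is CHL-1 given 10 mM AZC (L-azetidine-2-carboxylic acid, a proline analog) and the proteasome inhibitor MG132 at 20 µM for 20 minutes, and the third is untreated parental CHL-1. One library of each group carries the label that rRNA was removed. The rows are protein-coding transcripts, so the edit itself could not be checked on the small RNAs. A control-edited line is not among the groups, and the labels do not say whether the edited line is 1 clone. Each condition was deposited as 1 table, which leaves single values per condition with no replicate, no test and no p-values. Messenger abundance is not among the measurements, so fewer messengers in the cells and fewer ribosomes on each messenger cannot be told apart.

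The unit used throughout is normalised depth, the read depth summed over the bins of a transcript per 1000000 of the depth in its table. The table totals were 586.4, 367.3 and 473.7, in units of 1000000, for the CRISPR, AZC + MG132 and parental tables. A gene was compared where its depth exceeded the lower quartile of all rows in both tables, which is 3697, 2614 and 3187 in the same order. Transcript lengths were not used here, so levels are compared between tables within a gene and never between genes. The melanoma label was checked on 8 markers of the melanocyte lineage and neural crest. SOX10 stood at 352.5, 322.5 and 395.7 in the CRISPR, AZC + MG132 and parental tables, and S100B was above the minimum in all of them. In total 4, 3 and 2 of the 8 were above it in these tables. PMEL and MLANA, proteins of pigment cells, were above it in none, MITF and DCT were under it in the parental table, and the pigment enzymes TYR and TYRP1 were not listed. Of 10 markers of other cell types, 1, KRT10, was above the minimum. Of 3 markers of a mesenchymal melanoma state (AXL, NGFR and VIM), 2, 3 and 3 were above it in the CRISPR, AZC + MG132 and parental tables. NGFR was under it in the CRISPR table, at 4.81 against 31.8 in the parental table.

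The 7 genes had depths between 6965 and 33332 in the CRISPR table, between 2348 and 9251 in the AZC + MG132 table and between 4312 and 24797 in the parental table. If a footprint read is taken as 30 bases, the lowest of these values, MAPK3 in the treated cells, equals the depth of 78.3 reads and the highest, MAP2K2 in the edited line, that of 1111 reads. SOS1 and MAPK3 fell short of the minimum in the AZC + MG132 table, so 7 genes could be compared between the edited and the parental line and 5 in the comparisons with the treated cells. The values of SOS1 and MAPK3 there are given as measured, and a count over all 7 genes that includes them is set beside the count of the 5.

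**Figure D1:**
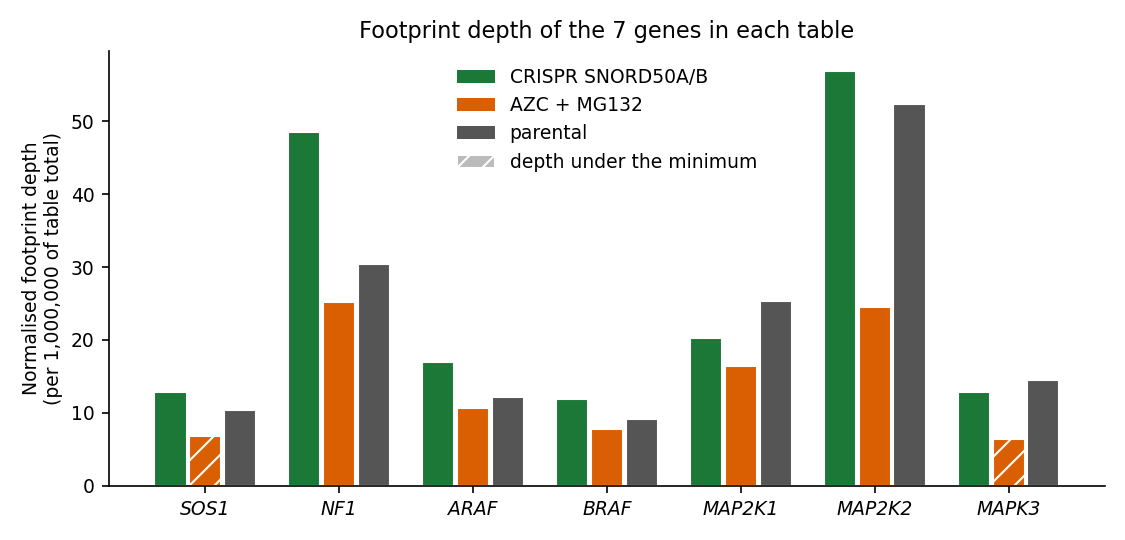
Normalised footprint depth (vertical axis, per 1000000 of the table total) of the 7 genes in the CRISPR, AZC + MG132 and parental tables, 1 bar per table and no error bars because each condition has 1 table. Hatched bars (SOS1 and MAPK3 in AZC + MG132) lie under the depth minimum. In all 7 genes the AZC + MG132 bar is the lowest of the 3, and bars should be compared within a gene only.

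How footprints on the cascade stood after 20 minutes of proteotoxic stress was read from the AZC + MG132 table set against the parental one. All 7 genes had less footprint depth in the AZC + MG132 table, from a log2 ratio of -0.19 for ARAF to -1.18 for MAPK3. The size depends on the scaling, as coding bins held 78.1% of all depth in that table and 85.6% in the parental table. Scaled to the total of coding bins, all 7 kept their sign, with ARAF at -0.06, BRAF at -0.10 and NF1 at -0.14. With the mean of all its transcript rows ARAF was at 0.02. The deficit was greatest in MAP2K2 and MAPK3 and least in the RAF genes and NF1. MAP2K1, on the same tier as MAP2K2, was at -0.62, near SOS1 at the top of the cascade at -0.59. SOS1 and MAPK3 were under the minimum. Of the 5 genes above the minimum 1, MAP2K2, was 2-fold or more lower, against 2.39% of all 7277 genes compared. The median of the 5 was -0.27 and that of all genes compared -0.05, with 55.3% of all genes on the lower side. The lower side was thus also the more common one among all genes.

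MAP2K2, which encodes MEK2, stood at 24.5 in the AZC + MG132 table, against 52.3 in the parental table. This is a log2 ratio of -1.09, and 1.64% of the genes compared had a lower one. The difference ran along the whole coding sequence: cut into 10 segments of 20 bins, the treated cells held less normalised depth in 10 of 10, as did 3.55% of all genes compared. The log2 ratio was -0.88 in the first 100 coding bins and -1.07 in the last 100, where the medians of all genes were 0.03 and -0.39. The call lies close to its limit, since coding bins alone gave -0.97, which is short of 2-fold.

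The 5′ UTR of MAP2K2 differed more than its coding sequence. It carried 1.52 in the treated cells against 7.37 in the parental line, a 4.84-fold difference, while the coding bins carried 22.7 against 44.3, a 1.95-fold difference. Depth in the 5′ UTR was thus 6.72% of coding depth in the AZC + MG132 table and 16.6% in the parental table. Most genes lay the other way, with a median over all genes of 11.6% in the treated cells against 5.88% in the parental line, and 16.2% of 7063 genes had a lower value in the treated cells. Of the 5 genes compared 3 were lower by this measure (ARAF, MAP2K1 and MAP2K2) and 2 higher (NF1 and BRAF). SOS1 and MAPK3, under the minimum, were also lower, on 5′ UTR depths that equal 1.73 and 0 reads in the treated cells against 14.1 and 0.8 in the parental line. The 5′ UTR depth of MAP2K2 in the treated cells equals that of 18.6 reads of 30 bases, so its share is a value from few footprints.

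MAP2K1, the gene of the paralogous kinase MEK1, stood at 16.4 in the treated cells against 25.3 in the parental line, a log2 ratio of -0.62, lower in 7 of 10 coding segments. Its ratio was of similar size in the first 100 coding bins (-0.48) and in the last 100 (-0.62). Footprint depth on both MEK genes was therefore lower, on MAP2K2 by more. The depth of MAP2K2 over that of MAP2K1, a quotient that does not depend on how tables are scaled, was 1.49 in the AZC + MG132 table and 2.07 in the parental table. From coding bins alone it was 1.59 and 2.12.

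MAPK3, the gene of ERK1, had 6.39 in the treated cells against 14.5 in the parental line, a log2 ratio of -1.18. It was lower in 8 of 10 coding segments, a count of 8 or more that 25.1% of the genes compared met, at -1.19 in the first 100 coding bins and -1.16 in the last 100. The deficit was thus of like size in both windows, and it is stated without a call because the treated depth of 2348 is under the minimum of 2614. Without a minimum, 4.32% of 9749 genes were 2-fold or more lower in this comparison.

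SOS1 stood at 6.88 in the treated cells against 10.4 in the parental line, a log2 ratio of -0.59, also under the minimum. Its depth was uneven: the last coding segment held 2.14 against 0.861 in the parental table, whereas segments 4, 5 and 7 held 0.237, 0.294 and 0.343 against 1.11, 1.32 and 2.03. Leaving out the first and last segment moved the ratio to -1.25, so the SOS1 value depends on footprints at the ends of its coding sequence. NF1, its counterpart on the RAS cycle, stood at 25.2 against 30.4, a log2 ratio of -0.27, with 6 of 10 segments lower. In the 5′ UTR of NF1 the treated cells held 2.34 and the parental line 0.355, the reverse direction to MAP2K2. These equal 28.6 and 5.6 reads of 30 bases, so this difference too comes from few footprints.

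The RAF genes differed least in total. ARAF stood at 10.6 against 12.1 and BRAF at 7.73 against 9.10, log2 ratios of -0.19 and -0.24, and 36.03% and 32.3% of all genes compared had lower ratios. The total of ARAF hides opposite differences along its coding sequence. In the first 100 coding bins the treated cells were higher, at a log2 ratio of 1.07, and in the last 100 they were lower, at -1.12. BRAF was lower in both, at -0.15 and -0.61.

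**Figure D2:**
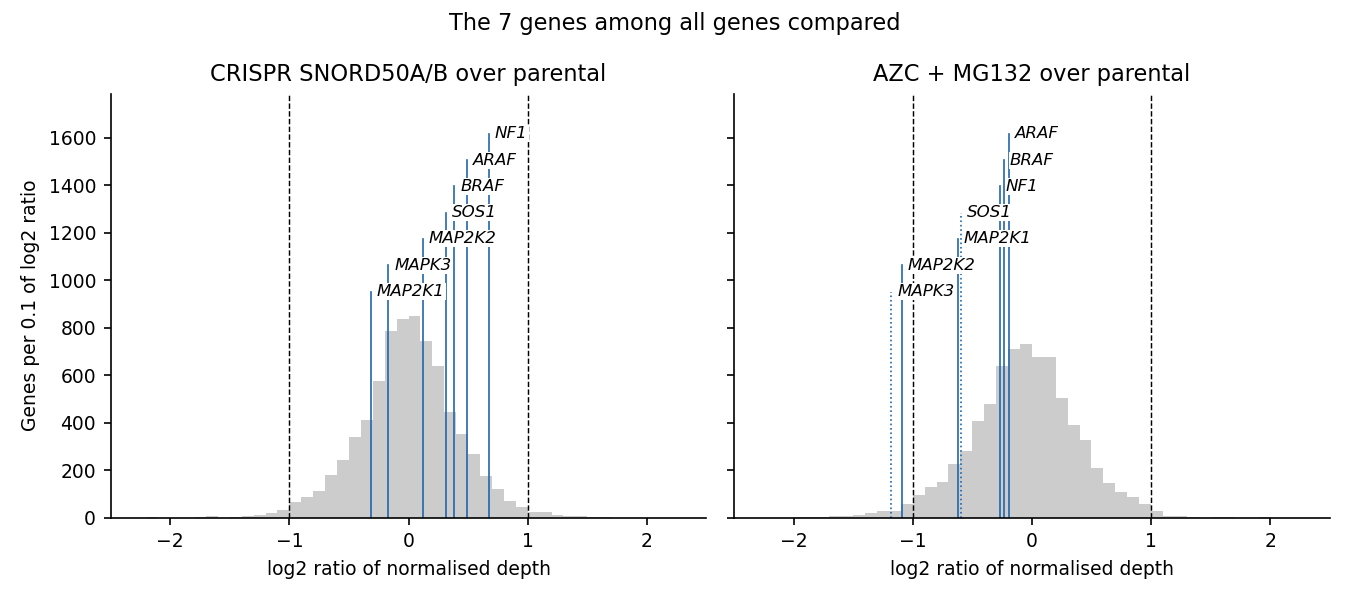
Distribution of log2 ratios of normalised depth over all genes compared (grey, genes per 0.1 of log2 ratio) with the 7 genes marked, for CRISPR over parental (left, 7540 genes) and AZC + MG132 over parental (right, 7277 genes). Dashed lines mark 2-fold and dotted stems mark genes under the depth minimum. On the right all 7 stems lie below 0 and MAP2K2 and MAPK3 lie past the lower dashed line; on the left they lie between -0.32 and 0.67.

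Whether footprints on the cascade differ after SNORD50A/B editing was read from the CRISPR table set against the parental one. None of the 7 genes was 2-fold or more apart in either direction, against 2.4% of 7540 genes compared. With single tables no count at an unadjusted p exists for this result. The regulators and the RAF genes were on the higher side, MAP2K2 close to equal, and MAP2K1 and MAPK3 on the lower side. The median of the 7 was 0.31 and that of all genes compared was 0.0040.

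NF1 had the highest ratio of the 7, at 48.5 in the CRISPR table against 30.4 in the parental table, a log2 ratio of 0.67. It was higher in 9 of 10 coding segments, and a count of 8 or more was met by 9.2% of all genes compared. Its first and last 100 coding bins gave 0.66 and 0.64. SOS1, which acts on RAS in the opposite direction, was also higher, at 12.9 against 10.4 (log2 ratio 0.31), in 6 of 10 segments. The depth of SOS1 over that of NF1 was 0.265 in the CRISPR table and 0.341 in the parental table. From coding bins alone it was 0.273 and 0.315. By these sums NF1 differed by more than SOS1. The order was not kept without the first and last segment, where SOS1 was at 0.64 and NF1 at 0.51.

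ARAF stood at 17.02 against 12.1 and BRAF at 11.9 against 9.10, log2 ratios of 0.49 and 0.38. For both the sum rested on parts of the messenger. ARAF was at 1.66 in the first 100 coding bins and at -0.33 in the last 100. BRAF was at -0.15 and 0.31 in these windows and at -0.46 without the first and last segment, and its 5′ UTR held 1.82 in the CRISPR table and was listed at 0 in the parental table. The direction for BRAF was thus not kept in all parts of the messenger.

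MAP2K1 stood at 20.3 against 25.3, a log2 ratio of -0.32, with 5 segments higher and 5 lower, and the ratio was -0.0022 in the last 100 coding bins. MAP2K2 stood at 56.8 against 52.3, a log2 ratio of 0.12, also with 5 segments higher and 5 lower. MAP2K2 depth over MAP2K1 depth was 2.80 in the edited line, against 2.07 in the parental line. MAPK3 stood at 12.9 against 14.5, a log2 ratio of -0.17. It was lower in 8 of 10 segments (14.9% of all genes compared were lower in 8 or more). The fourth segment held 4.62 against 0.713 and the last 3.42 against 2.55, so its near-equal total rests on 2 parts of the coding sequence.

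Footprints in the edited line were packed into fewer places on these messengers. All 7 genes had depth in fewer of their 200 coding bins than in the parental table, as had 89.6% of 7073 genes, so the cascade did not stand apart in this. All 7 also had fewer such bins in the AZC + MG132 table than in the parental table, with 72.7% of all genes. The unscaled depth per bin with depth went opposite ways. Against the parental table it was higher in all 7 in the CRISPR table and lower in all 7 in the AZC + MG132 table. More depth in fewer bins was thus seen in the CRISPR table only, in depth not scaled to table totals. Of all genes 77.9% had fewer such bins in the CRISPR than in the AZC + MG132 table, as had 4 of the 7. SOS1 had depth in 26% of its coding bins in the CRISPR table against 45.5% in the parental table, BRAF in 29.5% against 55.5% and MAPK3 in 47.5% against 79%. In MAP2K2, the best covered of the 7, it was 85.5% against 98.5%. The 5 highest bins of SOS1 held 31.01% of its coding depth in the CRISPR table, 32.9% in the AZC + MG132 table and 19.6% in the parental table. The higher totals of SOS1 and BRAF in the edited line therefore stand on fewer positions than the lower totals of the parental line, and the part this played in the ratios was not tested.

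**Figure D3:**
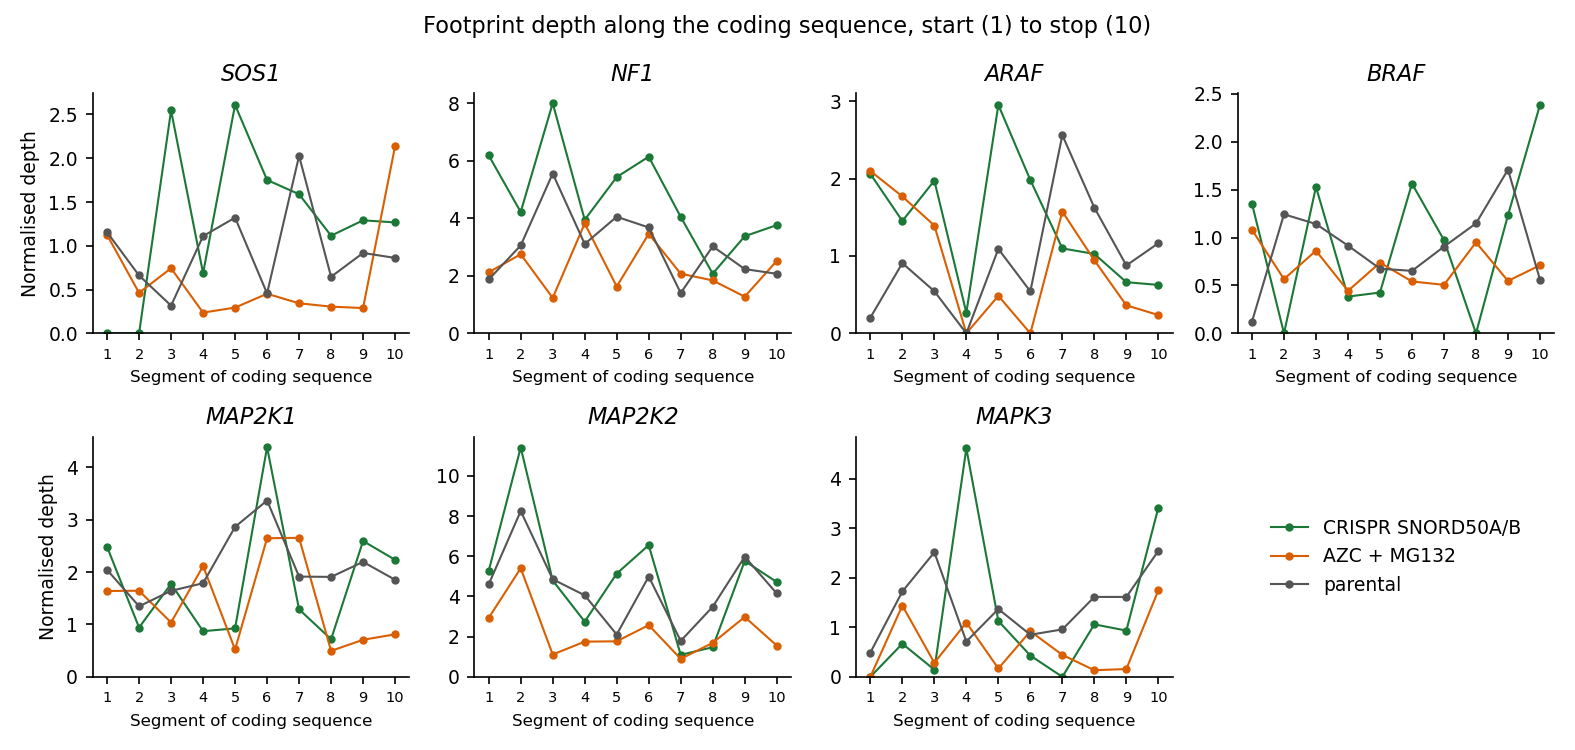
Normalised depth (vertical axis) in each segment of the coding sequence, from the start codon side (1) to the stop codon side (10), for the 7 genes in the CRISPR, AZC + MG132 and parental tables. In MAP2K2 the AZC + MG132 line lies under the parental line in 10 of 10 segments; SOS1, BRAF and MAPK3 have segments at 0 in the CRISPR table next to tall ones, and vertical scales differ between genes.

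The CRISPR and AZC + MG132 tables were also set against each other, without the parental table. Each of them already stands in a comparison above, so the same values enter again and this is not a separate measurement. All 7 genes stood higher in the CRISPR table, among them all 5 compared, the side on which 54.1% of all genes compared lay. Of the 5 compared, 1 was 2-fold or more higher, again MAP2K2, at 56.8 against 24.5 (log2 ratio 1.21), where 4.13% of 7219 genes were. NF1 was at 0.94 and higher in 10 of 10 coding segments (3.55% of all genes were), ARAF at 0.68, BRAF at 0.62 and MAP2K1 at 0.31. MAPK3 at 1.01 and SOS1 at 0.90 were under the minimum in the treated cells. The median of the 5 was 0.68 and that of all genes 0.06.

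Where the footprints began along the coding sequence was measured by the 5′ share, the mean depth of the first 20 coding bins over the mean of all 200. In the treated cells 6 of the 7 genes, among them all 5 compared, had a higher 5′ share than in the parental line, as had 78.4% of 7063 genes. In the edited line 5 of 7 were higher than in the parental line, against 53.3% of all genes. Both counts use the same parental table. Between the edited line and the treated cells 2 of 7 were higher in the edited line, NF1 and MAP2K1, both among the 5 compared, against 25% of all genes. With the mean of the first 10 coding bins in place of 20, the count against the parental line was 3 of 7 for the treated cells and 3 of 7 for the edited line. The shares of all genes given above are for 20 bins, so these counts have no share beside them.

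Among genes with a 5′ share above 0 in all tables, ARAF and BRAF had the largest differences. The 5′ share of ARAF was 1.46 in the CRISPR table, 2.37 in the AZC + MG132 table and 0.213 in the parental table, and that of BRAF was 1.37, 1.56 and 0.135. The parental values were the low ones, and they stand on little: the first coding segment had a depth of 96 for ARAF and 58 for BRAF in the parental table, equal to 3.20 and 1.93 reads of 30 bases. In the edited line the same segments equalled 40.3 and 26.5 reads, and in the treated cells 25.7 and 13.2.

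In MAP2K1 the 5′ share was 1.36 in the CRISPR table, 1.15 in AZC + MG132 and 0.977 in the parental table, and in MAP2K2 it was 1.08, 1.29 and 1.04. These values depend on the window: with the first 10 coding bins the log2 ratio of the share in the treated cells over the parental line was 1.42 for MAP2K2, where 20 bins gave 0.32, and that in the edited line was -0.36 for MAP2K1, where 20 bins gave 0.48. NF1 had 1.31, 0.934 and 0.623, again with the parental line lowest. The first segment of MAPK3 was listed at 0 in the CRISPR and AZC + MG132 tables and held the depth of 7.73 reads of 30 bases in the parental table. For SOS1 it was at 0 in the CRISPR table only, against depths of 413 in AZC + MG132 and 547 in the parental table.

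**Figure D4:**
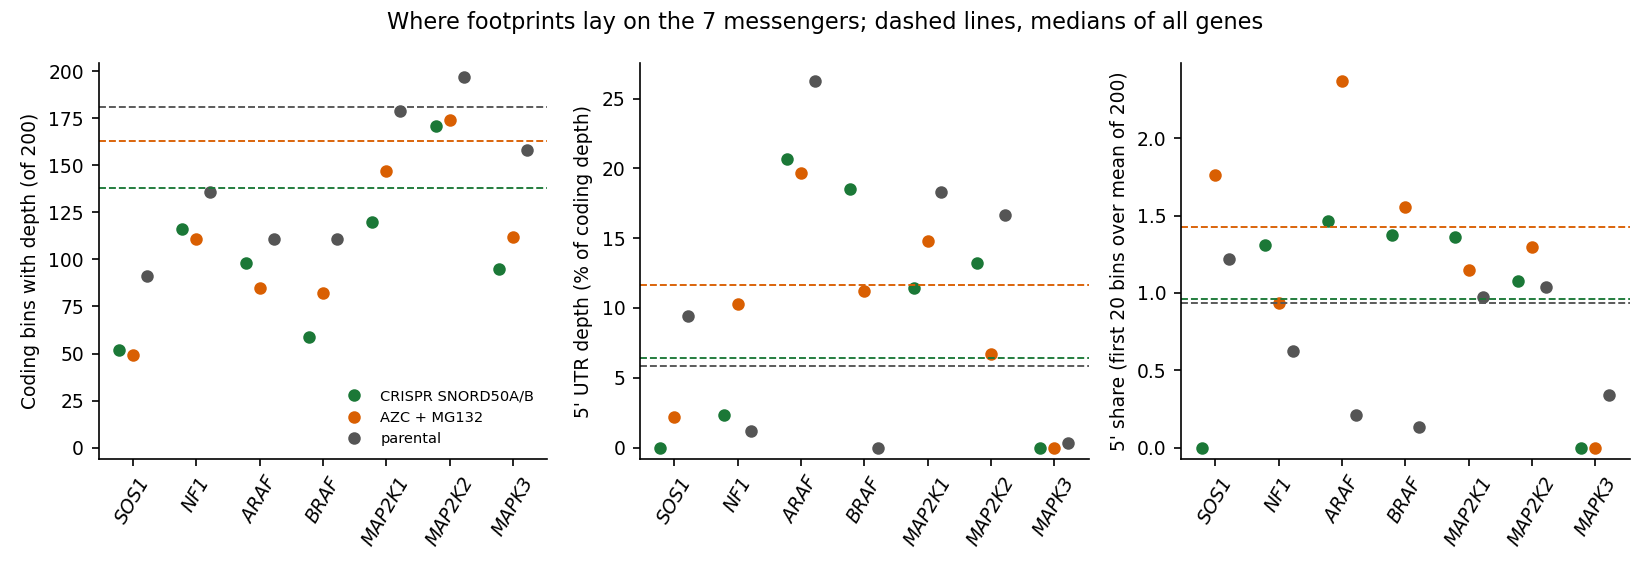
Coding bins with depth out of 200 (left), 5′ UTR depth as a percent of coding depth (middle) and 5′ share (right) of the 7 genes, 1 point per table, with dashed lines at the median of all genes above the minimum in the 3 tables. The parental point is the highest for every gene on the left; in the middle MAP2K2 has 6.72% in AZC + MG132 and 16.6% in the parental table; on the right the parental points of ARAF (0.213) and BRAF (0.135) lie far under the other two.

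The rest of the pathway was read from 8 lists with 69 genes, from receptors to ERK targets. In the treated cells against the parental line 37 of them were compared, 0 passed 2-fold on the higher side and 2 on the lower, with a median of -0.19. Of all genes compared 0.866% passed 2-fold on the higher side and 2.39% on the lower. The lower ones were PTPN11, the phosphatase SHP2 that relays receptor signals to RAS, at 14.4 against 44.2 (log2 ratio -1.62), and the receptor FGFR1 at 11.2 against 24.2 (-1.11). All 6 receptors compared were on the lower side, where 55.3% of all genes lay, with a median of -0.50. The medians were -0.40 for the 4 adaptors and exchange factors, -0.26 for the 2 RAS proteins and -0.15 for the 6 GTPase-activating proteins and inhibitors. They were 0.02 for the 10 scaffolds and RAF activators, -0.05 for the 6 14-3-3 proteins and 0.02 for the 2 ERK target genes. The 2 RAS proteins lay at -0.84 and 0.32 and the 2 ERK target genes at -0.66 and 0.70. Their medians thus stand between values of opposite sign. DUSP6 was the 1 ERK phosphatase compared, at 0.17.

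In the edited line against the parental line 39 list genes were compared, with a median of 0.0044. Of these 1 passed 2-fold in either direction, against 2.4% of all genes. It was RASA3, a GTPase-activating protein of the same class as NF1, at 17.95 against 7.99 (log2 ratio 1.17). The list medians were -0.17 for receptors, -0.07 for adaptors and exchange factors, 0.11 for RAS proteins, 0.06 for GTPase-activating proteins and inhibitors, 0.07 for scaffolds and RAF activators and -0.09 for 14-3-3 proteins. The 2 RAS proteins compared lay at -0.18 and 0.40. The single ERK phosphatase, DUSP6, was at -0.67, and the 3 ERK target genes had a median of 0.0015, with values from -0.53 to 0.12. Between the edited line and the treated cells 4 of 35 list genes passed 2-fold on the higher side and 0 on the lower, against 4.13% and 2.33% of all genes. The 4 were PTPN11 (1.76), the receptors MET (1.55) and FGFR1 (1.43), and RASA3 (1.24). PTPN11 and FGFR1 stand here on the same AZC + MG132 values as above, and RASA3 on the same CRISPR value. The AZC + MG132 value of RASA3, 7.58, is also close to the minimum.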

How the data were processed

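Footprint libraries were prepared after a published ribosome profiling protocol from cells lysed with cycloheximide, per the labels' protocols. Bowtie2, TopHat2 and the build hg19 are named, without versions, in the submitters' processing notes; not given in the sources used here is how both libraries of a group entered 1 table. Each deposited value, a score per bin, is log2(depth + 1), in 400 bins per RefSeq transcript, rounded by the authors to 2 decimals (bins 1 to 100 5′ UTR, 101 to 300 coding, 301 to 400 3′ UTR, as read from the values). Coding bins also held the value of the row above, which was subtracted. Of coding depth it made up 3.42% (CRISPR), 5.31% (AZC + MG132) and 4.37% (parental).

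Names came from the RefSeq table of GRCh38.p14, whose coordinates belong to another build and are not printed; 237, 211 and 219 transcripts stayed unnamed. Log2 ratios used a pseudocount of 0.5 on summed depth (Python 3.11.15, NumPy 2.4.6, pandas 2.3.3), and the steps were checked on simulated tables. Past 2-fold is a limit of size, not a test. The 7 genes and the pathway lists were chosen with earlier results of these data known, and a few pathway genes are not reported here. Named are the 7 genes, list genes past 2-fold and, for a member past 2-fold against the parental line, the 3 genes above the median level with the nearest pair of ratios; the planned naming by depth per base was dropped, as lengths were not used here. NF1 and the RAF genes have pseudogene copies that can share reads. Summed depth is in bases rather than reads, for which a counting interval cannot be given.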

Additional observations from a re-analysis of the deposited data

How the results depend on the processing

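The 14 alternatives for levels and the 5 for the 5′ share were run on every gene. A level counted as moved when it shifted by more than 1.5 times. Of the member ratios 97.3% stayed within that and 2.72% did not, and no ratio past 2-fold changed sign. The 97.3% includes values that could not move. A change of the minimum leaves each member ratio as it was, and the row with the highest mean level was the reported row for every member. Of the log2 ratios of 5′ shares 65.4% stayed within 1.5 times, 30.8% moved and 3.85% changed sign from past 2-fold. MAP2K2 in the treated cells against the parental line ranged from -1.09 to -0.88. The number of members 2-fold or more lower there was 0 with the total of coding bins, with coding bins only, with coding bins 21 to 180, with the first 100 coding bins, without the 5 highest bins and with a minimum 4 times higher (no member is then compared). It was 2 with the last 100 coding bins and 2 with no minimum, and 1 member, ARAF, was 2-fold higher in the first 100 coding bins. ARAF was also the 1 member 2-fold higher in the first 100 coding bins of the edited line against the parental line. In the edited line against the treated cells the number higher was 2 with coding bins only, bins 21 to 180, the first 100 coding bins, without the 5 highest bins and with no minimum, and 0 with the higher minimum. Some of these settings keep fewer bins or genes, no minimum keeps more genes, and the total of coding bins changes only the scaling. The cause of these changes was not tested.

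The percent of all genes past 2-fold also moved. In the edited against the parental line it was 4.66% with bins 21 to 180, 8.43% and 8.02% with the first and last 100 coding bins, 4.81% without the 5 highest bins, 7.38% with no minimum and 0.835% with the higher minimum. In the treated cells against the parental line these were 7.53%, 8.22%, 13.9%, 6.99%, 6.74% and 1.32%, and 5.35% with coding bins only. In the edited line against the treated cells they were 10.96%, 13.8%, 18.9%, 10.2%, 11.8% and 2.81%. Members with a higher 5′ share numbered 3 with the first 10 coding bins in both comparisons with the parental line. Between the edited line and the treated cells they numbered 1 with the first 40 and 4 with the first 100 coding bins, against 2 as reported. No share of all genes is given here for these other windows. For NF1, the 5′ share in the edited over the parental line was 1.07 as a log2 ratio and became -0.21 with the first 10 coding bins, and that of BRAF, 3.35, became -0.13 with the first 40 and -0.27 with the first 100. For SOS1 in the treated cells over the parental line it was 0.53 and became -1.98 with the first 10.

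No paired analysis was possible because the tables carry no column per library, and no library was left out. Coverage limits all of the genes, with depth in 24.5% to 98.5% of coding bins, and was lowest for SOS1 in each table, at 26%, 24.5% and 45.5% in the CRISPR, AZC + MG132 and parental tables.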

Other observations

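Genes with several deposited transcript rows gave ratios that depended on the row. NF1 has 3 rows, and the least covered, NM_001128147, stood at log2 ratios of 1.20 in the edited line and 0.45 in the treated cells, both against the parental line, where the row used above gave 0.67 and -0.27. ARAF likewise has 3 rows, and NM_001256197 stood at 1.02 and 0.87 in these comparisons, where NM_001654 gave 0.49 and -0.19. In these less covered rows the total of the treated cells was therefore higher than that of the parental line. For NM_001128147 the totals were 7.21 and 5.28, of which the 5′ UTR, with the same depth in all 3 NF1 rows, held 2.34 and 0.355. The excess of that row was thus no larger than the excess in its 5′ UTR, and the rest of it was not higher. In NM_001256197 the 5′ UTR was lower in the treated cells. The 3 rows of MAPK3 kept their direction, between -1.34 and -1.05 in the treated cells and between -0.39 and -0.13 in the edited line. Rows of a gene share footprints, as the 5′ UTR depth of 859 in all 3 NF1 rows of the AZC + MG132 table shows, so they are not separate measurements.

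By the pair of log2 ratios against the parental line, in the edited line and in the treated cells, the genes nearest to MAP2K2 among 3536 above the median level were GNB1, a G protein beta subunit, CAST, the calpain inhibitor calpastatin, and EPB41, a protein of the membrane skeleton. Their Euclidean distances on the log2 scale were 0.0608, 0.0760 and 0.0777. The likeness is over 3 tables only, and both ratios share the parental table.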
